A study of Homo sapiens with 3 samples.

Results

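The histone genes of the replication clusters were taken as every row of the count tables whose symbol starts with HIST1H, HIST2H, HIST3H or HIST4H. There were 35 such genes among 22499 rows with a symbol. Of these, 24 had at least 50 unique molecular identifiers (UMIs, each counting 1 captured RNA molecule) over the annotated cells and are described here. The described genes were 3 of 6 for the linker histone H1, 6 of 9 for H2A, 9 of 10 for H2B, 2 of 6 for H3 and 4 of 4 for H4. Other histone genes of these clusters had no row under such a symbol and were not analysed here.

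The cells were of CAMA-1, a long-cultured breast cancer line that depends on the estrogen receptor. Spheroids of 2000 plated cells held only sensitive cells carrying the transgene mVenus, only cells selected for resistance to the CDK4/6 inhibitor ribociclib and carrying mCherry, or a mixture, and all of them were treated with 1 µM ribociclib for 11 days. The annotated cells fell into 4 populations, which were 3329 cells of the sensitive monoculture, 2059 sensitive and 6292 resistant cells of the coculture, and 7557 cells of the resistant monoculture. There was 1 library per condition and both cocultured populations came from the same library, so no test across samples was possible. Every interval given here is a 95% interval. Intervals of ratios cover counting error of UMIs only and not the spread between cells. Intervals of shares of cells treat the cells of 1 library as independent draws. Neither covers differences between libraries. Each lineage is 1 labelled line, and no untreated spheroid was analysed here.

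Core histones H2A, H2B, H3 and H4 form the protein spool that DNA is wound on, and H1 binds the DNA between spools. Most genes of the replication clusters are transcribed mainly while DNA is copied, in S phase, and their mRNAs usually end in a conserved stem-loop in place of a poly(A) tail. Some of them can also give longer, polyadenylated mRNAs, and the 3' libraries used here capture RNA by its poly(A) stretches, so the counts are of captured molecules and not of all histone mRNA.

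The 3 libraries held 173405094 to 519475237 UMIs on genes with a symbol. Summed over annotated cells, a population held 70896822 to 270891547 UMIs, and the smallest group used, S cells of the sensitive monoculture, held 6614344 UMIs from 176 cells. S cells made up 5.29% of the sensitive monoculture, 22.2% of cocultured sensitive cells, 25.9% of cocultured resistant cells and 28.6% of the resistant monoculture. S cells were deeper than G1 cells, with a median of 39100 against 26713 UMIs in the sensitive monoculture and 38660 against 33368 in the resistant monoculture, and levels are therefore given as CPM, in which a gene's UMIs are scaled to a fixed total of UMIs of the same cells. Luminal keratin KRT8 lay at 1683 to 2139 CPM and the leukocyte gene PTPRC at 0 to 0.0282 CPM over the populations. ESR1, for the estrogen receptor, lay at 14.2 to 20.2 CPM. Of the other leukocyte and fibroblast genes read, CD68 lay at 0.364 to 1.06 CPM and COL1A1 at 2.40 to 3.61 CPM. The rest of them, CD3E, COL1A2 and PDGFRB, lay at 0.0480 CPM or less. Annotated cells of different libraries shared 7 to 17 barcode sequences per pair.

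The stem-loops of 6 members are shown, 3 from genes whose annotation stops at the stem-loop and 3 from genes with a transcript annotated past it. They were read from GRCh37 on the strand of the gene, with the 6 bases of each stem arm in capitals and the loop and 5 flanking bases on each side in lower case. Distances are along the genome to the farthest annotated end of any transcript of the gene. HIST1H4C, HIST2H2AC and HIST1H2BK have this end 5 bases past the stem-loop. For HIST1H4H, HIST2H2BE and HIST1H2AC it lies 7522, 1729 and 14432 bases past it. The canonical transcripts of HIST1H4H and HIST1H2AC nevertheless end 5 and 6 bases past the stem-loop, so these genes have an annotated end of both sorts, and the far end of HIST1H4H belongs to no protein-coding transcript.
HIST1H4C (chr6:26104540-26104565, plus strand): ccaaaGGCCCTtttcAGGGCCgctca
HIST2H2AC (chr1:149858936-149858961, plus strand): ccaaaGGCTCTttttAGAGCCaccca
HIST1H2BK (chr6:27114140-27114165, minus strand): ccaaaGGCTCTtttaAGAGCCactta
HIST1H4H (chr6:26285354-26285379, minus strand): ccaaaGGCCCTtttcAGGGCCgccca
HIST2H2BE (chr1:149857733-149857758, minus strand): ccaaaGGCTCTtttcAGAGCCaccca
HIST1H2AC (chr6:26124892-26124917, plus strand): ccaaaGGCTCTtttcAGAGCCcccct
A stem-loop was found by the same search, within 200 bases of the stop codon, in every matched member except HIST1H2AG. The same 16 bases of stem and loop occur in members that were higher and in members that were lower in S cells, as in HIST1H4C and HIST1H4H.

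Over the annotated cells the members gave 685246 UMIs. H4 genes held 41.8% of them, H2B 31.5%, H1 14.6%, H2A 11.6% and H3 0.567%. These are shares of the 35 genes taken here, 6 of them for H3 and 4 for H4. They are not shares of all histone RNA of each class. A few genes carried most of each class. HIST1H4C, which encodes histone H4, had 270001 UMIs, HIST1H2BK (H2B) 166240, HIST1H1C (linker histone H1.2) 92163 and HIST1H2AC (H2A) 66103. The H3 genes were represented almost wholly by HIST1H3D, with 3806 UMIs. The 11 members under 50 UMIs had 0 to 30 each, and HIST1H1D, HIST1H2BA and HIST2H3A had 0.

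**Figure D1:**
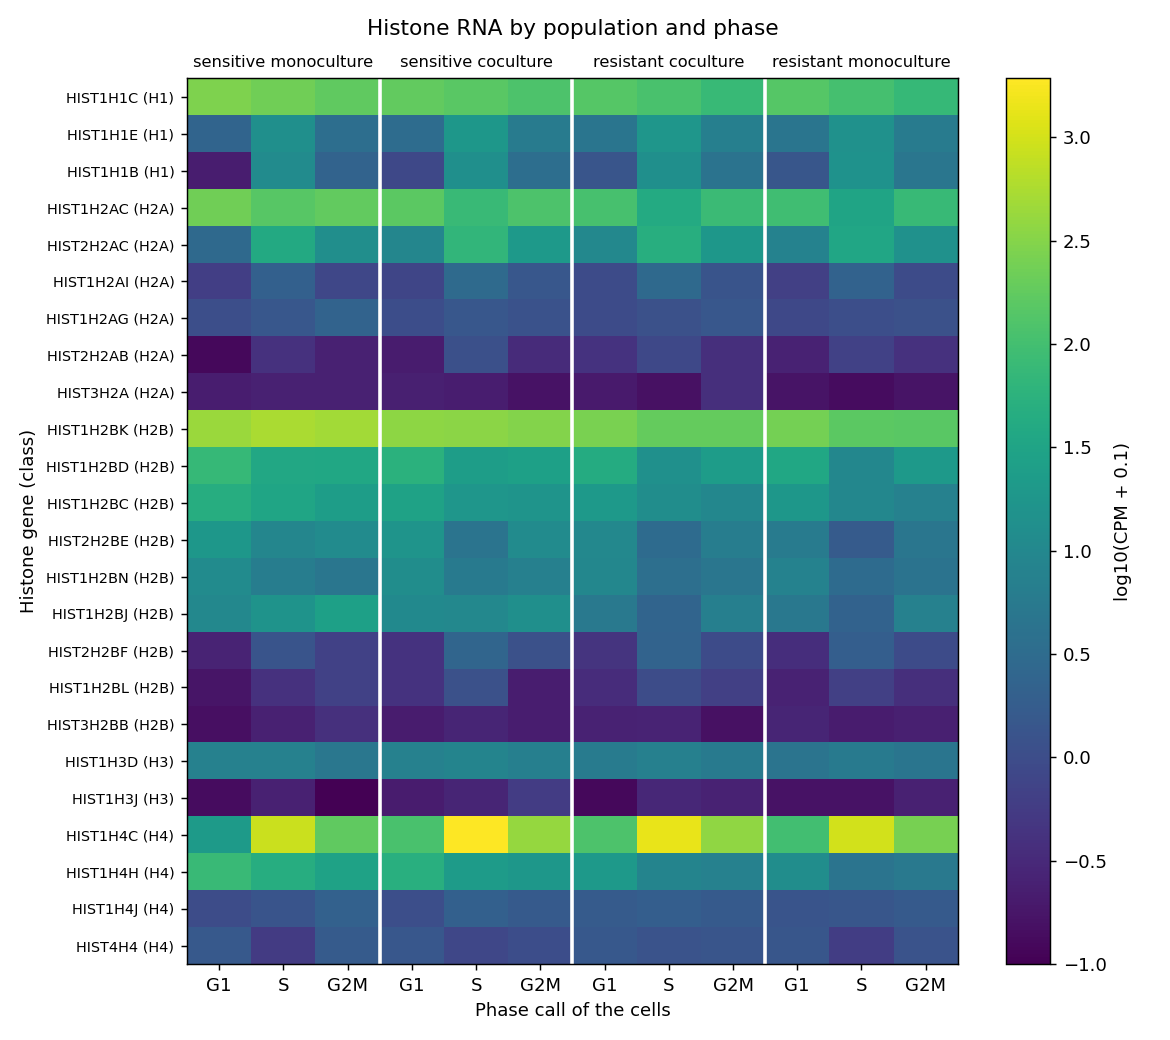
Level of each of the 24 described histone genes (rows, with class) in G1, S and G2M cells of the 4 populations (columns), as log10(CPM + 0.1) in colour. HIST1H4C is brightest in the S columns, while HIST1H2AC, HIST1H2BD and HIST1H4H are brightest in the G1 column of each population.

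Members differed in direction when S cells were compared with G1 cells. The phase calls are the authors', made from canonical markers that the paper does not list. The phase lists distributed with Seurat, which the paper used for clustering, hold no gene of these clusters. Whether the calls used these lists was not checked. In the resistant monoculture, 21 members had at least 50 UMIs over both phases. Of these, 8 were 2-fold or more higher in S cells, against 3.06% of all genes with enough UMIs, and 7 were 2-fold or more lower, against 1.21%. The other 6 were past 2-fold in neither direction. The median ratio of the members was 1.13, beside 1.00 over all genes, so the median alone shows neither group.

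HIST1H4C had the most UMIs among the members high in S cells. Its level in G1, S and G2M cells was 98.4, 993 and 256 CPM in the resistant monoculture. In cocultured resistant cells the levels were 124, 1401 and 370 CPM. In cocultured sensitive cells they were 115, 1922 and 397 CPM, and in the sensitive monoculture 21.6, 867 and 174 CPM. In every population S cells had the highest level and G1 cells the lowest. The S over G1 ratio was 10.1 (9.91 to 10.3) in the resistant monoculture, 11.3 in cocultured resistant cells, 16.7 in cocultured sensitive cells and 40.1 (38.0 to 42.3) in the sensitive monoculture. The larger ratio of the sensitive monoculture came with its G1 level, the lowest of the 4.

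The linker histone gene HIST1H1B (H1.5) followed the same order of phases, at 1.27, 15.3 and 4.66 CPM in G1, S and G2M cells of the resistant monoculture, a ratio of 11.99 (10.2 to 14.2) for S over G1. HIST1H1E (H1.4) was at 4.48 CPM in G1 and 14.7 CPM in S cells, a ratio of 3.28 (2.97 to 3.63). HIST1H1C went the other way, with 142 CPM in G1 cells and 103 CPM in S cells, a ratio of 0.73 (0.707 to 0.744). The H1 class thus held genes of both directions.

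Among H2A genes, HIST2H2AC was at 7.87 CPM in G1 cells and 34.8 CPM in S cells of the resistant monoculture, a ratio of 4.42 (4.12 to 4.76), with 12.7% of its 100-base windows also lying in transcripts of another histone gene. HIST1H2AI had a ratio of 3.89 (2.93 to 5.21), but 58.8% of its windows were shared, so its reads cannot be fully assigned. HIST1H2AC was at 94.6 CPM in G1 cells and 31.2 CPM in S cells, a ratio of 0.33 (0.316 to 0.345). HIST1H2AG was at 0.761 and 0.972 CPM, and the interval of its ratio, 0.938 to 1.73, held 1.

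Most H2B genes were lower in S cells. In the resistant monoculture HIST1H2BD was at 35.9 CPM in G1 cells and 9.65 CPM in S cells, and HIST2H2BE at 6.01 and 1.62 CPM, each a ratio of 0.27. HIST1H2BC had a ratio of 0.52 and HIST1H2BK of 0.65 (0.639 to 0.666). HIST2H2BF, at 0.264 CPM in G1 and 1.79 CPM in S cells, was the H2B gene with the highest ratio, 6.76 (4.63 to 10.1), and 13.99% of its windows were shared.

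Of the H4 genes, HIST1H4H was at 12.7 CPM in G1 cells and 4.43 CPM in S cells of the resistant monoculture, a ratio of 0.35 (0.310 to 0.390), opposite to HIST1H4C. HIST4H4 had a ratio of 0.40 (0.277 to 0.561). HIST1H4J had a ratio of 1.13 (0.874 to 1.45), but 90.7% of its windows were shared with other histone genes, so its reads cannot be fully assigned. HIST1H3D, for H3, was at 4.42 and 5.77 CPM, a ratio of 1.31 (1.15 to 1.48). HIST1H3J had 62 UMIs in all and too few in these cells for a ratio.

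**Figure D2:**
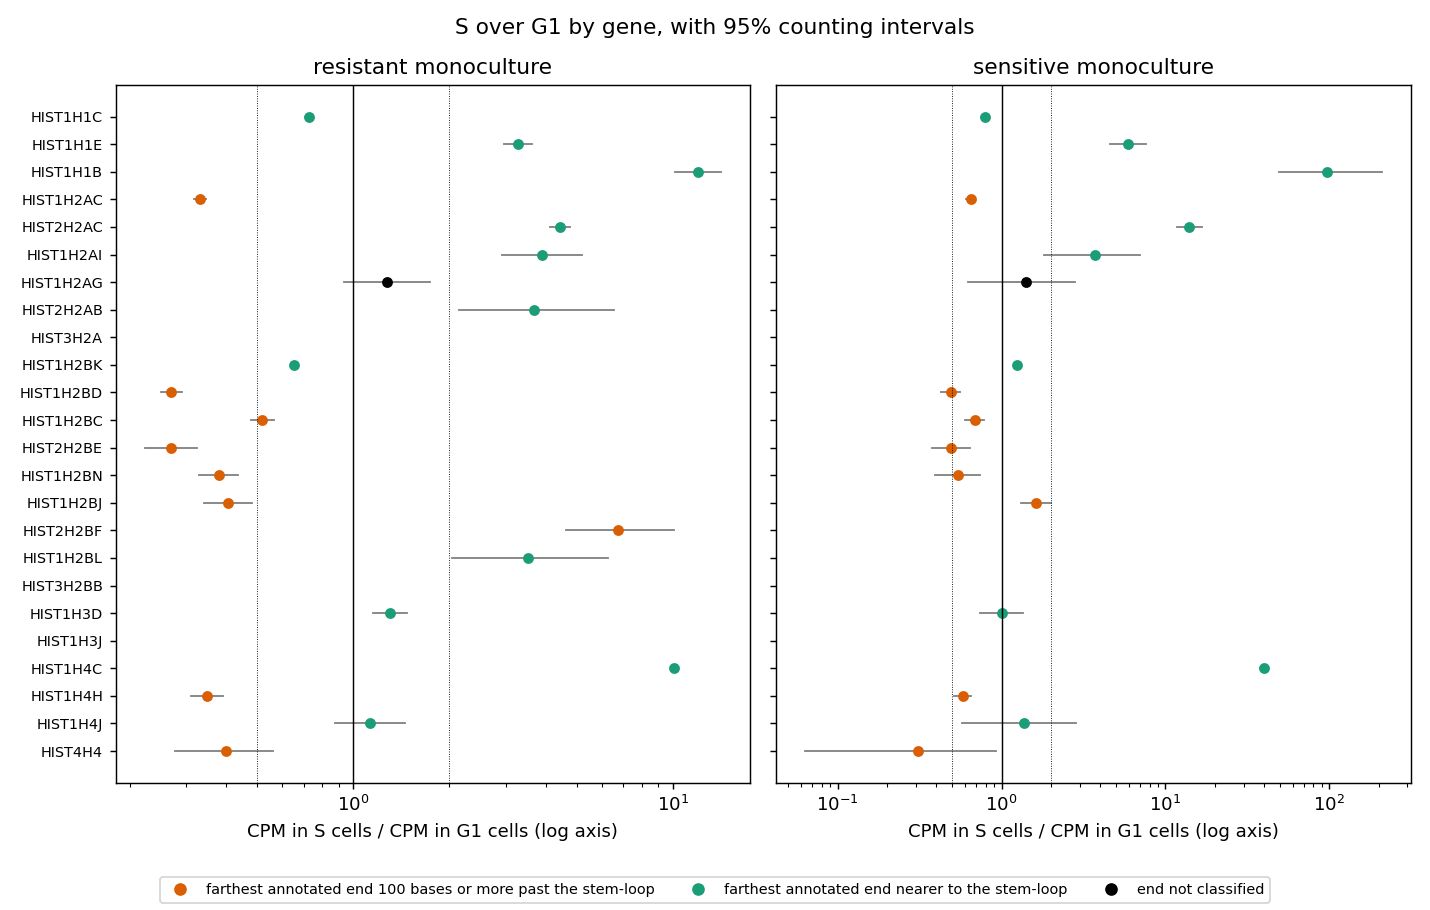
Ratio of CPM in S cells to CPM in G1 cells (log axis; the scales of the panels differ) for each member with at least 50 UMIs, in the resistant and sensitive monocultures, with 95% counting intervals as bars and dotted lines at 0.5 and 2. Orange marks genes whose farthest annotated end lies at least 100 bases past the stem-loop, by a rule widened after these ratios were seen. In the resistant monoculture 8 of 9 orange genes lie left of 1. The widening took in HIST1H4H and HIST4H4, both lower in S cells.

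How the farthest annotated 3' end divided the members depended on which transcripts were counted. Any transcript of the gene was used here, a choice widened from protein-coding transcripts after the phase ratios had been seen. In the resistant monoculture, 9 members with enough UMIs then had an end at least 100 bases past the stem-loop, and 7 of them were 2-fold or more lower in S cells, with a median ratio of 0.38, where 1.21% of all genes were lower and 3.06% higher. The exception upward was HIST2H2BF. Of 11 members with an end nearer to the stem-loop, 7 were 2-fold or more higher in S cells and 0 were 2-fold or more lower, with a median of 3.52. With protein-coding transcripts alone, 5 of 7 members with the far end were 2-fold or more lower, and 2 of 13 others were, because HIST1H4H and HIST4H4 changed sides. By the canonical transcript the division was not there to read, since HIST2H2BE alone had a far end, and 6 of 19 others were 2-fold or more lower. HIST1H1C and HIST1H2BK have short annotated ends and were nevertheless lower in S cells. The annotation is later than the one used for counting, and which end the captured molecules had was not tested.

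In G2M against G1 cells of the resistant monoculture, 3 of 19 members were 2-fold or more higher (3.34% of all genes) and 2 were lower (1.33%). HIST1H4C had a ratio of 2.61 and HIST1H4H of 0.42.

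The split was present in the other populations. Among 21 members in cocultured resistant cells, 8 were 2-fold or more higher in S cells (2.8% of all genes) and 6 lower (1.17%). Among 19 in cocultured sensitive cells, 6 were higher (2.91%) and 5 lower (1.09%). Among 18 in the sensitive monoculture, 5 were higher (4.12%) and 3 lower (3.98%). In the sensitive monoculture HIST1H2BK was at 443 CPM in G1 and 548 CPM in S cells, a ratio of 1.24 (1.19 to 1.28), whereas it was lower in S cells of the other populations.

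Neighbouring members did not always share a pattern. HIST2H2BE and HIST2H2AC are transcribed away from each other from starts 236 bases apart (GRCh37), and in the resistant monoculture their S over G1 ratios were 0.27 and 4.42. HIST1H2BC and HIST1H2AC, with starts 219 bases apart, were both lower in S cells. HIST1H2BL and HIST1H2AI, with starts 244 bases apart, were both higher, at 3.52 and 3.89, the latter from a gene with mostly shared windows. The 250 bases before the start of HIST2H2AC are shown because they span the interval between the RefSeq starts of the first pair. They are RefSeq sequence of GRCh38.p14, with CCAAT and TATAAA boxes on either strand in capitals.
HIST2H2AC (chr1:149886668-149886917, plus strand): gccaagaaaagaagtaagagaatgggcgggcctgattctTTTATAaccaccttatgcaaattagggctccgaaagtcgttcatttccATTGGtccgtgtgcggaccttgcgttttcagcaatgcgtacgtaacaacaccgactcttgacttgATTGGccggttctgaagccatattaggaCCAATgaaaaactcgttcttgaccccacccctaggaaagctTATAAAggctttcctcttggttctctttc
This interval holds 3 CCAAT boxes and a TATAAA box facing each gene. CCAAT, read on both strands, was found before 30 of 33 members with a RefSeq promoter (90.9%) and before 32.0% of 35116 promoters. TATAAA was found before 23 of 33 members (69.7%) and before 10.7% of all promoters. HIST1H4H, HIST1H4J and HIST4H4 were the 3 members with no CCAAT in this window. The 33 windows are not separate promoters, since HIST1H3D and HIST1H2AD have the same window and the windows of divergent pairs overlap.

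Summed over members, histone RNA was at 686 CPM in G1 and 1395 CPM in S cells of the resistant monoculture, a ratio of 2.03 (2.02 to 2.05). HIST1H4C gave 71.2% of the histone UMIs in those S cells and 14.3% in the G1 cells. Without HIST1H4C the sum was 588 CPM in G1 and 401 CPM in S cells, a ratio of 0.68. In the sensitive monoculture the sum was 1233 CPM in G1 and 2013 CPM in S cells, and 1211 and 1146 CPM without HIST1H4C. The direction of the sum thus rested on 1 gene.

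**Figure D3:**
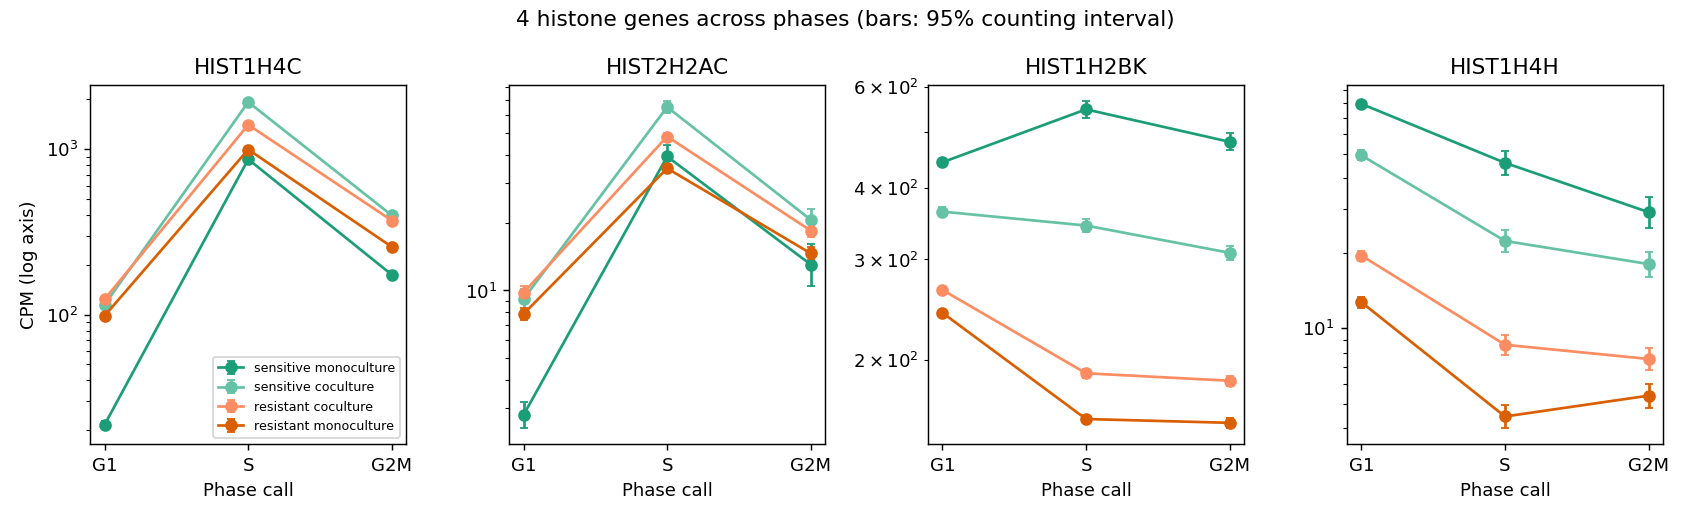
CPM (log axes, each panel with its own range) of HIST1H4C, HIST2H2AC, HIST1H2BK and HIST1H4H in G1, S and G2M cells of the 4 populations, with 95% counting intervals as bars. HIST1H4C and HIST2H2AC peak in S cells of each population, and HIST1H4H is highest in G1 cells.

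Within S cells, HIST1H4C was higher at higher S scores of the authors, and likewise at higher G2M scores. In the resistant monoculture S cells were split by score into 3 equal parts, which had 269.8 CPM at the lowest, 939 CPM at the middle and 1697 CPM at the highest scores. In the sensitive monoculture the same parts had 62.7, 576 and 1830 CPM. Split by G2M score instead, S cells had 336, 991 and 1607 CPM in the resistant monoculture and 66.02, 567 and 1842 CPM in the sensitive monoculture. Cells called S were already sorted into phase by these scores, so the splits cannot tell which score the rise went with. When each cell was thinned to 5000 UMIs, 81.3% (79.6% to 82.9%) of S cells and 35.2% of G1 cells of the resistant monoculture had a HIST1H4C UMI. In the sensitive monoculture the shares were 62.5% (54.9% to 69.7%) of S cells and 9.89% (8.84% to 11.0%) of G1 cells. No cell type here should lack histone RNA, so a background share could not be set, and the part of free RNA in the G1 share was not tested.

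The 5 genes with the pattern most like HIST1H4C over the 12 sums of population and phase were HIST2H2AC (Pearson r = 0.996), POLD3 (0.966), CDT1 (0.964), MCM10 (0.953) and CHAF1A (0.952), from 4687 genes whose mean level was 20 CPM or more. POLD3 is in the S list distributed with Seurat, which may have set the phases. These sums share libraries, and r is given as a description.

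Between cocultured and monocultured sensitive cells the members differed in both directions. Over all phases, 19 members had enough UMIs. Of these 6 were 2-fold or more higher in coculture than in monoculture, against 3.39% of all genes, and 1 was 2-fold or more lower, against 2.78%. HIST1H4C was at 90.7 CPM in the sensitive monoculture and 618 CPM in coculture, a ratio of 6.81 (6.66 to 6.97). HIST2H2AC was at 6.05 and 25.4 CPM, HIST1H1B at 1.06 and 4.44 CPM, and HIST1H1E at 3.19 and 7.59 CPM. The other members past 2-fold were HIST2H2BF, at 3.71, and HIST1H2AI, at 2.15, both with shared windows. HIST1H4H was lower in coculture, at 73.6 and 35.4 CPM, a ratio of 0.48 (0.460 to 0.504). HIST1H1C was at 273 CPM in monoculture and 159 CPM in coculture, a ratio of 0.58.

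The populations differ in phase, as S cells made up 5.29% of the sensitive monoculture and 22.2% of cocultured sensitive cells. With the phase shares of the sensitive monoculture given to both, HIST1H4C was at 75.1 CPM in monoculture and 227 CPM in coculture, a ratio of 3.02 (2.94 to 3.097). Phases were weighted here by shares of cells, whereas in the summed ratio of 6.81 deeper cells counted for more. The ratios therefore differ in weighting as well as in phase mix. Within G1 cells HIST1H4C was at 21.6 and 115 CPM, a ratio of 5.31 (5.02 to 5.61), and within S cells the ratio of the sums was 2.22 (2.16 to 2.28). These cells came from different libraries, and the part of free RNA in the G1 levels was not tested. The medians over S cells lay farther apart, at 241 CPM in monoculture and 1648 CPM in coculture, and the upper quartile of the monoculture's 176 S cells was 1447 CPM. Of 17 members in G1 cells, 2 were 2-fold or more higher (2.59% of all genes), HIST1H4C and HIST2H2AC, and 0 were 2-fold or more lower (2.25%). Of 15 members in S cells, 1 was higher (1.29%) and 2 were lower (0.873%), HIST2H2BE and HIST1H4H. HIST1H1B was at 11.6 CPM in S cells of the monoculture and 13.3 CPM in those of the coculture, and the interval of the ratio, 0.882 to 1.505, held 1.

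**Figure D4:**
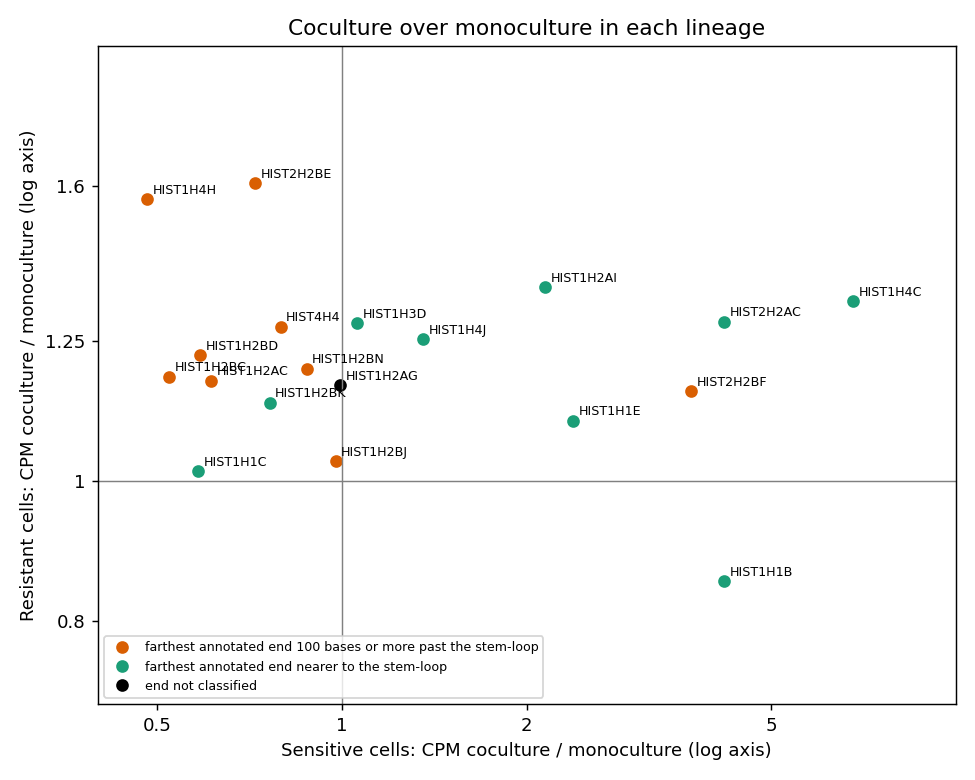
Ratio of CPM in coculture to CPM in monoculture for sensitive cells (horizontal, log axis) and resistant cells (vertical, log axis), 1 point per member with at least 50 UMIs in both comparisons and all phases together. HIST1H4C lies farthest right, at 6.81, and HIST1H4H lies left of 1 and above 1.5.

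Between cocultured and monocultured resistant cells, of 22 members 0 were 2-fold or more higher (0.76% of all genes) and 0 lower (0.0988%), counts near the share of all genes. A ratio above 1 was found for 20 of them, and the share of all genes above 1 was not counted. The median of the members was 1.21, beside 1.03 over all genes. HIST1H4C was at 405 CPM in monoculture and 539 CPM in coculture, a ratio of 1.33, and HIST1H4H at 8.59 and 13.4 CPM, a ratio of 1.57 (1.48 to 1.66). With the phase shares of the resistant monoculture given to both, the HIST1H4C ratio was 1.40 (1.38 to 1.41).

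Between the monocultures, 21 members had enough UMIs. In resistant cells 7 were 2-fold or more higher than in sensitive cells (5.98% of all genes) and 8 were 2-fold or more lower (8.38%). HIST1H4C was among the higher ones, at 90.7 CPM in sensitive and 405 CPM in resistant cells, a ratio of 4.47 (4.37 to 4.57), and at 21.6 and 98.4 CPM in G1 cells. The part of free RNA in these G1 levels was not tested. HIST1H4H had the lowest ratio, 0.12 (0.111 to 0.122), from 73.6 CPM in sensitive and 8.59 CPM in resistant cells. HIST1H2BK was at 453 and 197 CPM, HIST1H2AC at 216 and 71.1 CPM, and HIST1H1C at 273 and 115 CPM. Within S cells 0 of 18 members were 2-fold or more higher in resistant cells (3.98%) and 9 were lower (4.92%). HIST1H4C in S cells was at 867 CPM in sensitive and 993 CPM in resistant monoculture, a ratio of 1.15 (1.11 to 1.18). This holds for the sums and not for the typical cell, as the median over S cells was 241 CPM in sensitive and 672 CPM in resistant monoculture.

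Between the cocultured populations, which share a library, 0 of 21 members were 2-fold or more higher in resistant than in sensitive cells (2.05% of all genes) and 2 were lower (3.82%). These were HIST1H4H, at 13.4 CPM in resistant and 35.4 CPM in sensitive cells, and HIST1H2BJ, at 4.90 and 11.2 CPM. The median ratio of the members was 0.87, beside 1.00 over all genes, and within S cells 0.74, beside 0.99.

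Genes that make, process or carry histones were read from 3 lists. Some of them are in the lists Seurat uses to call phase (SLBP, CCNE2, CASP8AP2, NASP, MCM2 and CHAF1B for S, CENPA for G2M). If the authors used these lists, the S over G1 values of these genes are partly set by the call, and they are given as a description. For histone transcription and 3' end processing, 17 of 18 genes were found, and 5 of 17 were 2-fold or more higher in S than in G1 cells of the resistant monoculture, with 0 lower and a median of 1.31, beside 3.06% of all genes higher and 1.21% lower. Without the Seurat genes 3 of 15 were higher. SLBP, whose protein binds the stem-loop, was at 28.1 and 74.6 CPM, a ratio of 2.66 that the phase call may partly set. Its ratio between cocultured and monocultured sensitive cells was 1.35. LSM10, of the particle that cuts histone mRNA, was at 55.3 and 53.5 CPM in G1 and S cells, and E2F1 at 19.6 and 76.7 CPM. CASP8AP2 was not matched.

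Of 21 genes for histone chaperones and acetylation of new histones, 7 were 2-fold or more higher in S cells and 0 lower (3.06% and 1.21% of all genes), with a median of 1.48. Without the Seurat genes 4 of 18 were higher. NAP1L1, a chaperone of H2A and H2B, had a ratio of 1.31, and the FACT subunits SSRP1 and SUPT16H had 1.57 each. Of 12 replication-independent histone genes, which are used outside S phase as well, 10 had enough UMIs. Of these, 3 were 2-fold or more higher in S cells and 0 lower (3.06% and 1.21% of all genes), with a median of 1.24. Without CENPA 2 of 9 were higher. H2AFZ, for the variant H2A.Z, was at 946 and 1684 CPM, a ratio of 1.78, and the H3.3 genes H3F3A and H3F3B had 1.05 and 1.12. In G2M against G1 cells, 5 of 11 replication-independent genes were 2-fold or more higher (3.34% of all genes), with a median of 1.66. CENPA was not left out there, and the phase call may partly set its G2M value. Of the processing list 2 of 17 were higher, with a median of 1.32, and of the chaperone list 3 of 21, with a median of 1.38. By medians the lists were thus higher in both S and G2M cells. Fewer processing and chaperone genes were past 2-fold in G2M than in S cells when all genes of the lists were counted. Without the Seurat genes the S counts were 3 of 15 and 4 of 18. The G2M counts were not repeated without them, so no comparison free of these genes was made.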

How the data were processed

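The authors processed the reads with Cell Ranger 3.0.2 on GRCh37. The tables the authors deposited hold raw UMI counts of genes by barcode. The deposited annotation of kept cells gives S and G2M scores, phase and population, and the mitochondrial percent, all made by the authors. The paper names Seurat for filtering and clustering, and names no tool for the phase calls. A further 8 annotation columns were not used. Rows without a symbol (0.523% to 0.591% of UMIs) were left out. Counts were summed by population and phase and expressed as CPM. Ratios had no pseudocount, a minimum of 50 UMIs over both groups and an exact conditional (Clopper-Pearson) interval. The fixed phase mix had a delta-method interval, shares an exact binomial one. A count of 0 allows up to 3 counts. Library preparation and sequencing error are not covered. The methods state that doublets were removed before analysis, and no doublet caller was run. Positions and ends came from GENCODE 44 lifted to GRCh37, which matched 34 of 35 members by identifier, and promoters from RefSeq. The rule for the farthest annotated end was widened from protein-coding to all transcripts after the phase ratios had been seen, which moved HIST1H4H and HIST4H4, both lower in S cells, into the far group. The genes named were, per class, the 4 with most UMIs and the highest and lowest S over G1 ratio in the resistant monoculture, the 3 with most UMIs of each list and the 5 most like HIST1H4C. Others were named after their values were seen. Members and lists were chosen with earlier results of these data known. The ratio calls were tested on simulated counts with counting error only. The simulation held no spread between cells or libraries, so it checks the computation and not how far the intervals hold for these data. Python 3.11.15, numpy 2.4.6, scipy 1.17.1 and edgeR 4.0.16 (TMM scaling only) were used.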

Additional observations from a re-analysis of the deposited data

Results flagged for a closer look

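Members are listed here whose ratio lay above 1 in 1 population pair and below 1 in the other, with both counting intervals clear of 1. The differences were not tested, since each condition had 1 library. For coculture over monoculture with all phases together, HIST1H1B had 4.19 in sensitive and 0.85 in resistant cells, a quotient of 4.92. S cells made up 5.29% of the sensitive monoculture and 22.2% of cocultured sensitive cells, and within S cells the interval of its sensitive ratio held 1. The other 7 members were lower in coculture in sensitive cells and higher in resistant cells. How many of all genes differ in this way was not counted, so the number says nothing particular to histone genes. The quotient was 0.31 for HIST1H4H, 0.44 for HIST1H2BC, 0.45 for HIST2H2BE, 0.48 for HIST1H2BD, 0.52 for HIST1H2AC, 0.67 for HIST1H2BK and 0.73 for HIST1H2BN. For S over G1, HIST1H2BJ had 1.63 in the sensitive and 0.41 in the resistant monoculture, a quotient of 4.02. HIST1H2BK had 1.24 and 0.65, a quotient of 1.89. In the sensitive monoculture, 176 cells were called S.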

How the results depend on the processing

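No paired analysis was possible because each condition had 1 library. The summed histone ratio of sensitive coculture over monoculture, 1.12, reversed to 0.69 without HIST1H4C, 0.83 in G1 cells and 0.92 in G2M cells. It was 1.11 as a mean over cells, 1.34 unscaled, 1.15 with TMM, 1.40 without members with a far annotated end and 1.34 in S cells. S over G1 in the resistant monoculture, 2.03, reversed to 0.68 without HIST1H4C, and in the sensitive monoculture, 1.63, to 0.95. In that order the mean over cells gave 1.98 and 1.59, no scaling 2.27 and 2.20, TMM 2.01 and 1.58, leaving out the 10% of cells with the most UMIs 2.01 and 1.57, leaving out members with a far annotated end 2.64 and 2.25, and S scores above 0.1 gave 2.498 and 2.05. Members with a far annotated end, here and for the 1.40 above, follow the rule widened after the phase ratios were seen. That rule took in HIST1H4H and HIST4H4, both lower in S cells. The 8 members at 2-fold or more in S cells of the resistant monoculture became 5 with at least 200 UMIs and were 6 to 9 otherwise. The 6 in sensitive coculture were 4 to 9. The 7 members with a far annotated end that were 2-fold or more lower in S cells of the resistant monoculture rest on the rule widened after seeing the data; they were 5 with the earlier rule of protein-coding transcripts and 1 with canonical transcripts, the latter also chosen after seeing the data. The fixed-mix ratio of HIST1H4C, 3.02, was 2.38 with the coculture's phase shares and 2.29 with equal weights. The share of cells with a HIST1H4C UMI, 13.9% in sensitive monoculture and 52.2% in sensitive coculture, was 21.3% and 67.6% at 10000 UMIs and 40.6% and 86.8% unthinned. Causes were not tested. Depth limits members under 50 UMIs and the 176 S cells of the sensitive monoculture.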
